A study of Mus musculus with 54 samples.

Results

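Mouse embryonic stem cells (ESC) carrying transgenes for both Ovol2 isoforms (Ovol2a/2b-Tg) were compared with ESC of the line labelled TKO, 2 libraries against 2. These 4 libraries were taken by name from 18 ESC libraries of 9 lines, in a series of 54 poly(A) RNA-seq libraries that also covers epiblast-like cells (EpiLC) and day 2 primordial germ cell-like cells (d2PGCLC). All carry the strain label C57BL/6 X 129/SvJ. The transgenic line has the genotype label Ovol2a/2b OE, and the TKO line only TKO, which the labels do not spell out. The other ESC lines used for reference are wild type (WT), Ovol1KO, Ovol2KO, Ovol3KO, the single transgenics Ovol2a-Tg and Ovol2b-Tg, and Cdh1-Tg, which carries the E-cadherin gene Cdh1 as a transgene. For the transgenic lines, parental background, promoter and number of clones were not given in the sources used here. Nor do the labels say that the 2 libraries of a line came from separate cultures, so p-values measure the spread between libraries, which may be technical. Library names follow a different style in Ovol2a/2b-Tg than in TKO, and a sequencing batch and the line cannot be told apart.

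OVOL proteins are zinc finger transcription factors that bind DNA and mostly repress genes, and Ovol2 encodes a short and a long isoform. In epithelia they hold cells in the epithelial state, in part by repressing factors such as Zeb1 that drive the transition to mesenchyme. ESC are epithelial in character, with E-cadherin at their contacts, and shift away from this state as they leave pluripotency. Setting a transgene for both isoforms against TKO asks which transcripts move with Ovol2 in the undifferentiated state.

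Reads recovered from the deposited values numbered 9123449 and 8420724 in the Ovol2a/2b-Tg libraries and 18095845 and 4399015 in the TKO libraries. Markers matched the ESC label: Pou5f1, Sox2, Nanog, Zfp42, Esrrb, Klf4, Klf2, Tfcp2l1, Dppa5a and Tdh lay at 120 to 4657 TPM (transcript abundance scaled to gene length and to the library's total) in the 4 libraries, and none changed. Markers of fibroblasts or feeder cells summed to 2.7 to 3.7 TPM over 7 genes, with Col3a1, Dcn, Postn and Lum at 0 in all 4 libraries. Primitive endoderm markers summed to 9.5 and 11 TPM over 5 genes in Ovol2a/2b-Tg, of which Sox7 alone gave 6.87 and 7.97 TPM. They summed to 4.2 and 2.4 TPM in TKO, and trophoblast markers to 6.3 to 9.5 TPM in the 4 libraries. Larger sums were those of 4 EpiLC markers, 119 and 115 TPM in Ovol2a/2b-Tg against 205.2 and 168.6 in TKO, and of 4 neural markers, 88.6 and 86.9 TPM against 127.4 and 126.4. The Cdh1-Tg pair used below carries a PGCLC tag although its title says ESC, and its Nanog (704 TPM on average) and Klf4 (172 TPM) were at ESC levels.

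Ovol2 itself stood at 2217 and 2169 TPM in Ovol2a/2b-Tg and at 3.72 and 6.57 TPM in TKO. The transgenic libraries thus lay far above every other ESC line, since the line means were 282 TPM in Ovol2b-Tg and 95.9 in Ovol2a-Tg, then 14.7 in Ovol2KO, 7.81 in WT and 1.65 in Cdh1-Tg. On the log2(TPM + 1) scale used for all fold changes here, the difference from TKO was 8.52 ± 0.302 (SE, adjusted p = 7.37e-10). Because reads are summed per gene, they show neither which isoform was made nor whether the native gene contributed, and a TPM above 0 in Ovol2KO and TKO says nothing about a functional protein. The paralogs did not pass the test: Ovol1 was at 0.977 and 0.352 TPM in Ovol2a/2b-Tg against 0.287 and 0 in TKO (log2 fold change 0.53, adjusted p = 0.206), and Ovol3 at 8.07 and 7.59 TPM against 10.01 and 10.7 (-0.36, adjusted p = 0.293).

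**Figure D1:**
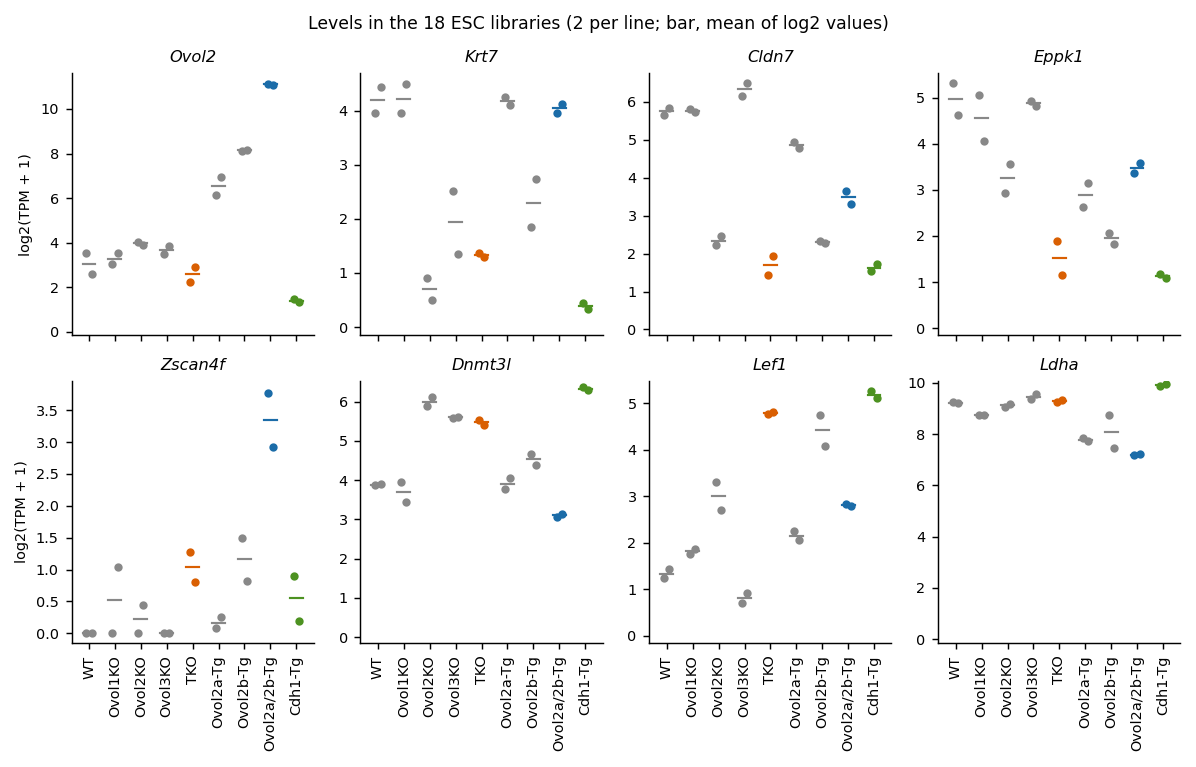
Level of 8 genes in the 18 ESC libraries as log2(TPM + 1), with 2 points and their mean for each of 9 lines, TKO in orange, Ovol2a/2b-Tg in blue and Cdh1-Tg in green. Ovol2, Krt7, Cldn7, Eppk1 and Zscan4f lie higher in both Ovol2a/2b-Tg libraries than in both TKO libraries, and Dnmt3l, Lef1 and Ldha lie lower.

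Among 14416 tested genes, 121 rose and 162 fell in Ovol2a/2b-Tg relative to TKO ESC, that is 283 genes or 1.96% of those tested (0.839% higher and 1.12% lower). A gene counted as changed at a Benjamini-Hochberg adjusted p under 0.05 in limma together with a log2 fold change of 1 or more in size, and 1775 genes passed the p threshold alone. The median over all tested genes was 0.03. The count rested partly on 1 library: without TKO replicate 1, the more deeply sequenced of its pair, it was 462, with 295 rises and 167 falls. In 35 of the 121 rises both Ovol2a/2b-Tg libraries lay above all other 16 ESC libraries, and in 50 of the 162 falls both lay below them. The same was not counted over all tested genes. Picking genes by their difference from TKO favours extreme values in the Ovol2a/2b-Tg libraries. TKO set against WT gave 231 rises (1.60% of tested genes) and 357 falls (2.48%), 4.08% in all, and Ovol2a/2b-Tg against WT 213 rises (1.48%) and 409 falls (2.84%), 4.31% in all. These comparisons share libraries, so their values are given only side by side.

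**Figure D2:**
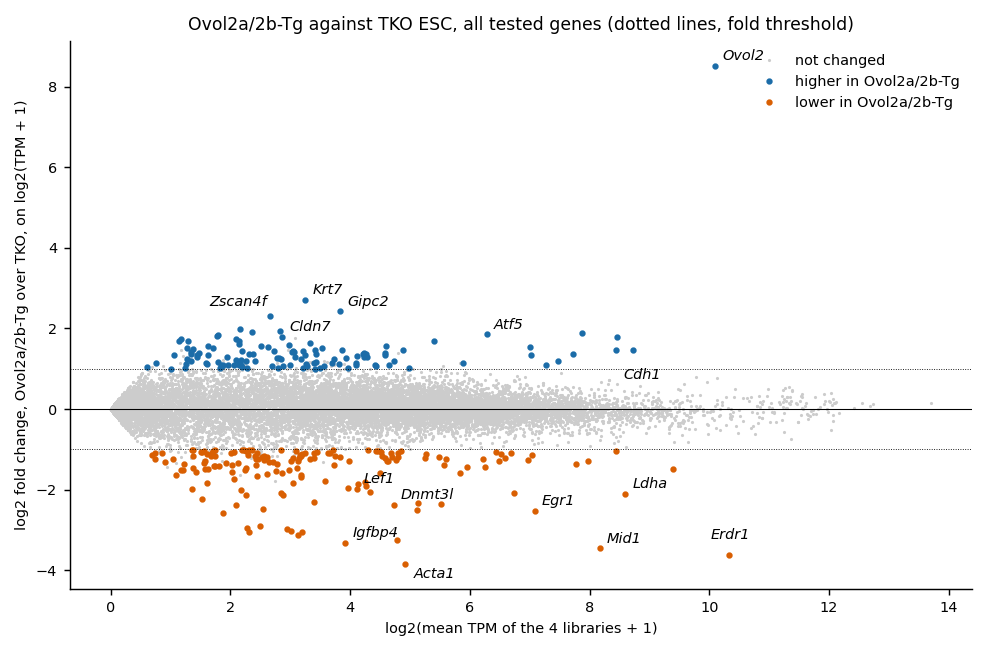
Log2 fold change of Ovol2a/2b-Tg over TKO ESC against the log2 of the mean TPM + 1 of the 4 libraries, 1 point per tested gene, with rises in blue, falls in orange and other genes in grey. Ovol2 stands alone at 8.52, most changed genes have low to middle levels, and Erdr1 and Mid1 are low at high mean levels.

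Some epithelial genes rose in Ovol2a/2b-Tg: 4 of 30 tested genes for junctions and adhesion and 2 of 21 keratins and surface proteases, where 0.839% of all tested genes rose. Krt7, a keratin of simple epithelia, was at 1.57 and 1.44 TPM in the TKO libraries and at 14.6 and 16.4 TPM in the transgenic libraries. It rose by 2.72 ± 0.345 on the log2 scale (SE, adjusted p = 0.000169), the largest rise after Ovol2 among genes with a mean of at least 5 TPM in the higher group and no overlap between groups. By line its mean was 17.6 TPM (WT), 17.1 TPM (Ovol2a-Tg), 4.13 TPM (Ovol2b-Tg) and 0.311 TPM (Cdh1-Tg). Krt8, the partner keratin of simple epithelia, went from 0.856 and 1.01 TPM to 3.92 and 7.35 TPM (1.73 ± 0.233, adjusted p = 0.000287), still below its WT mean of 21.6 TPM.

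Cldn7, a claudin of tight junctions and lateral membranes, stood at 1.72 and 2.84 TPM in TKO and at 11.5 and 8.96 TPM in Ovol2a/2b-Tg. The rise was 1.79 ± 0.182 (SE, adjusted p = 2.88e-05), and the groups did not overlap, while the WT mean was 53.02 TPM and the Ovol2a-Tg mean 28.4. Ap1m2, the epithelial clathrin adaptor subunit that sorts proteins to the basolateral membrane, went from 3.49 and 6.85 TPM to 15.6 and 16.4 TPM (1.52 ± 0.219, adjusted p = 0.000479), with a WT mean of 64.7 TPM. Eppk1, which encodes the keratin-binding protein epiplakin, went from 2.72 and 1.23 TPM to 9.23 and 11.1 TPM (1.95 ± 0.337, adjusted p = 0.00195; WT mean 31.1). Krt8, Cldn7, Ap1m2 and Eppk1 were each lower in Ovol2a/2b-Tg than in WT as well as higher than in TKO. Dsp, which links desmosomes to keratin, rose by 1.12, to 2.81 and 3.57 TPM, and the tight junction gene Marveld3 went from 0.259 and 0.429 TPM to 1.47 and 1.91 TPM (adjusted p = 0.00662). Neither call was firm: Dsp stood at 0.96 without TKO replicate 2 and 0.99 without Ovol2a/2b-Tg replicate 2, and Marveld3 at 0.88 without Ovol2a/2b-Tg replicate 2 and 0.91 without TKO replicate 1, all under the fold threshold.

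None of the 30 junction and adhesion genes fell, and the median log2 fold change was 0.28, with 21 values positive and 7 negative. A further 7, Cdh1, Epcam, Cldn4, Cldn6, Tjp3, Crb3 and Lsr, passed the adjusted p but not the fold threshold, all with positive values. Cdh1, which encodes E-cadherin, was at 285 and 266 TPM in TKO and at 426 and 419 TPM in Ovol2a/2b-Tg, a log2 difference of 0.62 ± 0.0793 (adjusted p = 0.000189). Its WT mean was 440 TPM and its mean in Cdh1-Tg 585 TPM. In TKO relative to WT, 8 of the same 30 genes were lower and none higher (median -0.34).

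Of the 21 keratins and surface proteases, Krt7 and Krt8 rose and none fell (median 0.14, with 13 values positive and 6 negative). Another 5, Krt18, St14, Prss8, Esrp2 and Sfn, had positive values that passed only the adjusted p. Krt18, with Krt8 a marker of simple epithelium and picked after its values were seen, reached 3.54 and 3.10 TPM against 1.19 and 1.31. Several further epithelial genes outside the lists were among the rises and were chosen for mention after their values were seen. Lad1, a component of epithelial anchoring filaments, went from 0.357 and 0.765 TPM to 3.39 and 3.84 (log2 fold change 1.57), and Dst, which encodes the cytoskeletal linker dystonin, from 26.9 and 13.3 TPM to 63.2 and 62.5 (1.68).

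The 250 bases before the start sites of Krt7 and Cldn7, the leading keratin and claudin, are shown because the OVOL core motif was searched for there. They are from RefSeq on GRCm38.p6, read 5′ to 3′ on the gene's strand, which is plus for both, at chr15:101412153-101412402 and chr11:69964529-69964778.
Krt7: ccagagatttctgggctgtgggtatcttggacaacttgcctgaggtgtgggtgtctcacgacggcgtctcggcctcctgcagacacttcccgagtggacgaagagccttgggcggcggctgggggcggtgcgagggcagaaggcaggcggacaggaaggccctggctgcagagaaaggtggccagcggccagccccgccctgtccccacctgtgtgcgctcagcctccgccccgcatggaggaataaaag
Cldn7: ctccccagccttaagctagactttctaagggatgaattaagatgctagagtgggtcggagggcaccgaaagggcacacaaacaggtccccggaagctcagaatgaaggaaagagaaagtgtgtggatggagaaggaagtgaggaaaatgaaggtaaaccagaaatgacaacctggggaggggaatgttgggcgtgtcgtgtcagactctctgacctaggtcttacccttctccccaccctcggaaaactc
The motif CCGTTA and its reverse complement TAACGG occur in neither, nor in the same windows of Krt8 and Ap1m2, so these letters are not in those windows. For shares over genes, whole RefSeq windows were searched on both strands, 300 bases long with 50 of them after the start site. The motif lay in any window of 478 of 10928 tested genes with a RefSeq promoter entry (4.37%). It did so for 8 of 82 such genes that rose (9.76%) and 10 of 124 that fell (8.06%). These shares are a description with no test. The 8 rises include Zscan4c, Zscan4d and Zscan4f, counted separately although they are nearly identical around the motif, as printed below.

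No gene of the epithelial to mesenchymal transition list passed both thresholds, of 25 tested, and the median was -0.06. Zeb1, a known target of OVOL2 that is outside the rule for named genes, was at 14.6 and 10.2 TPM in TKO and at 10.04 and 9.71 TPM in Ovol2a/2b-Tg (log2 fold change -0.28 ± 0.194, adjusted p = 0.391), and its WT mean was 4.22 TPM. Vim, the mesenchymal intermediate filament gene, went from 768 and 722 TPM to 546 and 541 TPM (-0.45 ± 0.0758, adjusted p = 0.00149). Cdh11, Mmp14 and Sparc were among the others that passed the adjusted p alone, with negative values down to -0.86 for Cdh11. Fn1, for fibronectin, lay at 487 and 482 TPM between its TKO values of 517 and 364. In limma 6 of the 25 genes had an unadjusted p under 0.05, and with limma-voom on the recovered reads 2 fell and none rose.

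Pluripotency genes did not pass both thresholds, with 0 of 23 naive genes (median -0.13) and 0 of 13 general pluripotency genes (median -0.42). At an unadjusted p under 0.05 in limma there were 10 and 9 genes, and limma-voom also called none. Pou5f1 was at 1748 and 1714 TPM in Ovol2a/2b-Tg against 1779 and 1898 in TKO. Trim28, a corepressor that silences retroviral elements, was at 958 and 931 TPM against 1402 and 1322 (-0.53, adjusted p = 7.41e-05). Negative values that passed the adjusted p alone were found for 5 naive genes, Klf2, Dppa2, Fbxo15, Sall4 and Manba, and for 7 general ones, among them Lin28a, Utf1, Trim28 and Dnmt3b. The naive genes of highest level, Dppa5a and Tdh, gave log2 fold changes of 0.15 and -0.06.

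Genes of the formative and primed epiblast split. Of 22 tested, 4 fell and 2 rose (median -0.26), where 1.12% of all tested genes fell and 0.839% rose. The sums of EpiLC and neural markers, given above, were also lower in Ovol2a/2b-Tg, but none of these markers changed. A single gene gave up to 192.89 TPM of the EpiLC sums and up to 114.53 TPM of the neural sums. Dnmt3b, an EpiLC marker, is itself on the formative list. Any part of these markers in the falls was not tested. Dnmt3l, the cofactor of de novo DNA methylation, was at 45.4 and 41.3 TPM in TKO and at 7.34 and 7.84 TPM in Ovol2a/2b-Tg. It fell by 2.37 ± 0.158 on the log2 scale (SE, adjusted p = 5.04e-07), and both transgenic libraries lay below all other 16 ESC libraries. Its means were 13.8 TPM in WT, 12.1 in Ovol1KO, 62.9 in Ovol2KO and 79.3 in Cdh1-Tg.

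Lef1, a DNA-binding partner of beta-catenin, went from 26.2 and 26.8 TPM to 6.08 and 5.88 TPM (-1.98 ± 0.226, adjusted p = 7.39e-05) and had a WT mean of 1.54 TPM. Myc fell by 1.16, and Pim2, a serine/threonine kinase gene picked after its values were seen, by 1.07. Sox3 rose by 1.06 (adjusted p = 0.0271) and Wnt8a by 1.40 (adjusted p = 0.019), and both calls were lost without Ovol2a/2b-Tg replicate 1 (0.98 and 1.54), Ovol2a/2b-Tg replicate 2 (1.15 and 1.27) or TKO replicate 2 (0.94 and 1.32). Myc no longer passed the test without Ovol2a/2b-Tg replicate 2 (-1.03). The 4 falls were also changed in the same direction against Cdh1-Tg, whereas Wnt8a was at 2.33 and 3.02 TPM against a Cdh1-Tg mean of 3.40.

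Signalling genes moved in both directions. Bmp4, a ligand of the BMP branch, was at 3.93 and 3.22 TPM in TKO and at 0.592 and 0.640 TPM in Ovol2a/2b-Tg (-1.497 ± 0.380, adjusted p = 0.0202). Id3, a direct transcriptional target of BMP signalling, fell from 98.7 and 71.1 TPM to 27.5 and 27.3 TPM (-1.58), while the ligand gene Bmp7 rose from 6.96 and 7.11 TPM to 17.6 and 15.9 TPM (1.14). In all, 1 of 23 tested genes of BMP and TGF-beta response rose and 2 fell (median -0.15). Among all tested genes 0.839% rose and 1.12% fell. The Bmp4 call was lost without any 1 of the 4 libraries, at log2 fold changes of -1.61 to -1.38, and that of Bmp7 without Ovol2a/2b-Tg replicate 1 (1.07). Of 21 WNT targets 2 rose, Wnt8a and Sp5, and 2 fell, Lef1 and Myc (median 0.19).

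Of 23 genes of FGF and ERK output, Egr1, Dusp5 and Ier3 fell and none rose (median -0.20), where 1.12% of all tested genes fell. Set against Cdh1-Tg, none of these falls passed both thresholds as a fall, and the list median was -0.01. Sox7, the transcription factor gene on the endoderm list, rose from 2.58 and 1.26 TPM to 6.87 and 7.97 TPM (1.56), the only change among its 19 tested genes. The Sox7 call was lost without Ovol2a/2b-Tg replicate 2 (1.47) or TKO replicate 2 (1.23), that of Sp5 without TKO replicate 2 (1.02), and that of Dusp5 without Ovol2a/2b-Tg replicate 1 (-1.67), replicate 2 (-1.502) or TKO replicate 2 (-1.54). Among 30 genes of primitive streak and mesoderm, Sp5 rose and Bmp4 fell (median 0.04). Krt7 and Krt8 were also the only changed genes of 21 on the trophoblast list, where 0.839% of all tested genes rose.

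The imprinted growth factor receptor adaptor Grb10 fell from 40.9 and 35.1 TPM to 17.7 and 18.01 TPM (-1.04 ± 0.132, adjusted p = 0.000164), the only change among 26 imprinted genes tested. Without TKO replicate 1 it was at -0.94, under the fold threshold. The classical MHC gene H2-K1 rose from 12.8 and 12.5 TPM to 28.0 and 28.2 TPM (1.09), alone among 24 antiviral and antigen presentation genes. None of the tested hox genes (27), laminins, collagens and integrins (25), endothelium and blood genes (13), p53 targets (20) or cholesterol synthesis genes (20) passed both thresholds, with medians from 0.00 to 0.25. At an unadjusted p under 0.05 in limma there were, in the same order, 0, 8, 3, 13 and 4, and limma-voom called 1 gene, of the laminin list, higher. The hox genes were tested because the filter covers all 54 libraries. In ESC they summed to only 3.8 and 2.4 TPM in TKO and 5.7 and 4.7 TPM in Ovol2a/2b-Tg. Levels that low leave little room for a call. On the fibroblast and feeder list Acta2 and Fbln2 fell among 21 tested (median -0.06), and the Fbln2 call was lost without any 1 of the 4 libraries (-1.27 to -1.03). Dnmt3l was the only change among 15 genes of DNA methylation. For these lists too, the shares over all tested genes were 0.839% higher and 1.12% lower.

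Zscan4 genes, which encode zinc finger proteins of the cleavage-stage embryo and of a small transient fraction of ESC, were higher in the transgenic line. Zscan4f was at 1.43 and 0.751 TPM in TKO and at 12.6 and 6.56 TPM in Ovol2a/2b-Tg, a rise of 2.30 ± 0.360 (SE, adjusted p = 0.000939). Zscan4c went from 1.201 and 1.01 TPM to 9.44 and 4.93 TPM (1.91), and Zscan4b and Zscan4d rose by 1.98 and 1.84. For each of the 4 genes, both transgenic libraries lay above all other 16 ESC libraries, in which the highest value was 1.82 TPM for Zscan4f and the lowest 0. In bulk RNA, more cells with these transcripts and more RNA per cell cannot be told apart.

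These were the only changed genes among 16 tested cleavage-stage genes (4 higher, none lower, median 0.70), where 0.839% of all tested genes rose. Usp17lb, Usp17lc and Tcstv3 passed the adjusted p alone with positive values. The Zscan4 copies share 43.6% (Zscan4d) to 89.2% (Zscan4b) of their 50-base stretches with other genes, so the division of reads among them is uncertain. Their 4 rises are therefore not independent counts. Dux, which drives this group of genes, was too low to be tested, at 0.350 and 0.252 TPM against 0.235 and 0.

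The upstream windows of 3 Zscan4 genes carry the motif, and a stretch of each is printed with the corresponding stretch of Zscan4b, which does not. All are from RefSeq on GRCm38.p6, 5′ to 3′ on the gene's strand, at chr7:11005644-11005709 (plus, Zscan4c), chr7:11166195-11166260 (minus, Zscan4d), chr7:11397837-11397902 (plus, Zscan4f) and chr7:10905063-10905128 (minus, Zscan4b). Capitals mark TAACGG, which is CCGTTA on the other strand, or the bases at its place.
Zscan4c: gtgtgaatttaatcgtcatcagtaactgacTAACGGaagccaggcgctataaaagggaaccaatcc
Zscan4d: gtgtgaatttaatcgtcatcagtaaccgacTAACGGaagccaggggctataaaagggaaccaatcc
Zscan4f: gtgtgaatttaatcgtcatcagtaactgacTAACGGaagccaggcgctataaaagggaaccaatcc
Zscan4b: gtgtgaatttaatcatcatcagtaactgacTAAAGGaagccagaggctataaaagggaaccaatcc
The stretches of Zscan4c and Zscan4f are identical over 66 bases, that of Zscan4d differs from them at 2 bases, and that of Zscan4b differs from Zscan4c at 4. Within the motif, counted from 1 at the T of TAACGG, Zscan4b carries C4A relative to Zscan4c. Zscan4b rose by 1.98 without the motif in its window, and Zscan4c by 1.91 with it. The division of reads among these copies is uncertain, so their rises cannot be compared by motif. Any part of the motif was not tested.

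Sycp1, which encodes a protein of the synaptonemal complex of meiosis, rose from 0.380 and 0.133 TPM to 2.61 and 2.52 TPM (1.51 ± 0.184, adjusted p = 0.000124), above all other 16 ESC libraries. With the piRNA pathway gene Tdrd5 (1.10), it made up the 2 rises among 26 germ cell genes tested, with no fall and a median of 0.07. Among all tested genes 0.839% rose. The Tdrd5 call was lost without Ovol2a/2b-Tg replicate 1 (1.15), replicate 2 (1.06) or TKO replicate 2 (1.04). Igfbp4, an insulin-like growth factor binding protein, fell from 26.2 and 26.6 TPM to 1.26 and 2.35 TPM (-3.32 ± 0.271, adjusted p = 3.71e-06), and both transgenic libraries again lay outside the range of all other 16. Their motif matches are shown as examples of a rise and a fall outside the Zscan4 family, chosen after the values were seen, at chr3:102936101-102936163 (minus strand) and chr11:99041088-99041153 (plus strand) on GRCm38.p6, with the motif in capitals.
Sycp1: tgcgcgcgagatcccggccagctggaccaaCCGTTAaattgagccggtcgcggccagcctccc
Igfbp4: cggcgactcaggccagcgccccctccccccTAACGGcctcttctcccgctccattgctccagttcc
Sycp1 rose and Igfbp4 fell, each with a match in its window.

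Other genes at the top of the rises were Gipc2, which encodes a PDZ domain adaptor, and Atf5, a transcription factor of the stress response. Gipc2 went from 4.51 and 2.54 TPM to 20.4 and 25.2 TPM (2.42 ± 0.263, adjusted p = 4.98e-05). Atf5 went from 32.4 and 33.0 TPM to 119 and 123 TPM (1.86 ± 0.119, adjusted p = 2.99e-07). For both genes the transgenic libraries exceeded all other 16 ESC libraries. Hist1h2ah, a histone gene that shares 93.3% of its 50-base stretches with other genes, was at 169 and 53.5 TPM in TKO and at 347 and 361 TPM in the transgenic line (1.88), and its mean in Cdh1-Tg was 341 TPM. Its call was lost without Ovol2a/2b-Tg replicate 1 (1.91), replicate 2 (1.85) or TKO replicate 2 (1.06). Further Hist1h2a genes rose, among them Hist1h2ab, Hist1h2ag, Hist1h2ao and Hist1h2ap, named after their values were seen. For these and Hist1h2ah the transgenic libraries did not exceed all other ESC libraries. Hist1h2ap lay at 600 to 616.9 TPM in Ovol2a/2b-Tg and at 601.2 to 612.5 TPM in Cdh1-Tg.

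Of 25 tested genes of glycolysis and the hypoxia response, 9 fell and none rose, with a median of -0.60, where 1.12% of all tested genes fell. The other 16 did not pass both thresholds, and of these 9 had negative values that passed the adjusted p alone. In TKO relative to WT, 5 genes of this list were higher and 1 lower (median 0.34). Relative to WT, Ovol2a/2b-Tg had 0 higher and 1 lower (median -0.22), so the 9 falls are relative to TKO. Ldha, the enzyme that makes lactate from pyruvate, was at 609 and 639 TPM in TKO and at 144 and 147 TPM in Ovol2a/2b-Tg. It fell by 2.09 ± 0.249 on the log2 scale (SE, adjusted p = 0.000105), below all other 16 ESC libraries. By line its mean was 961 TPM (Cdh1-Tg), 599 TPM (WT), 299 TPM (Ovol2b-Tg) and 218 TPM (Ovol2a-Tg).

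Ndrg1, a hypoxia-induced gene, went from 36.6 and 29.5 TPM to 10.9 and 9.80 TPM (-1.58), and the mitophagy receptor gene Bnip3 from 83.3 and 94.9 TPM to 35.2 and 29.2 TPM (-1.44). Pfkl and P4ha1, for a phosphofructokinase subunit and a collagen prolyl hydroxylase subunit, each fell by 1.22. The other falls were Ankrd37, Adm, Egln3 and Aldoc, from -1.54 to -1.17. Gapdh, the glycolytic dehydrogenase gene, went in the other direction, with 934 and 921 TPM against 639 and 558 (0.63, adjusted p = 1.26e-05), as did Vegfa (0.57). Of the genes in these sentences, Bnip3, Pfkl, P4ha1, Egln3, Aldoc, Gapdh and Vegfa were picked after their values were seen. So was Slc16a3, the lactate exporter, which is outside the list. It went from 55.6 and 59.5 TPM to 9.80 and 11.7 TPM (-2.32), against 20.1 TPM in WT.

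**Figure D3:**
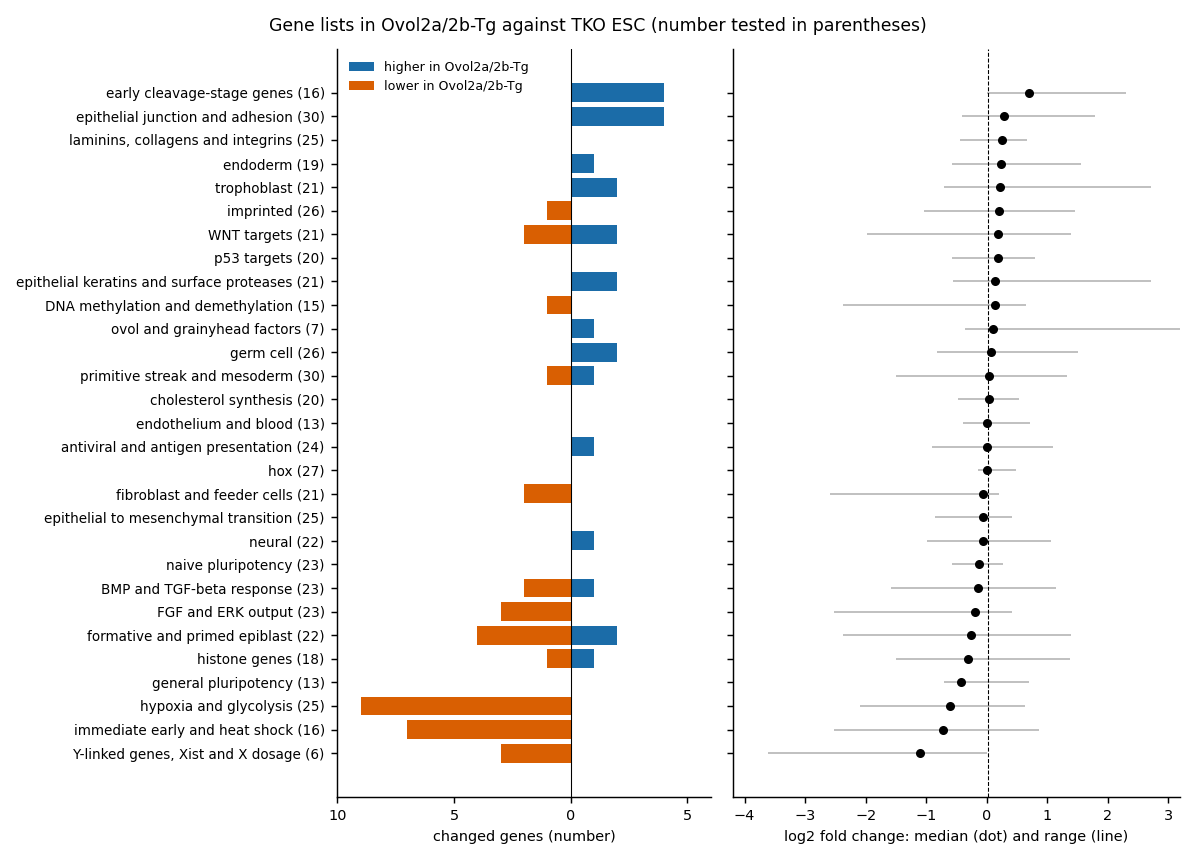
For 29 gene lists, the number of genes higher (blue, to the right) and lower (orange, to the left) in Ovol2a/2b-Tg than in TKO ESC, and the median and range of their log2 fold changes. The dashed line is the median of all tested genes, 0.03, and the range of the OVOL and grainyhead list runs off the axis to the 8.52 of Ovol2. Falls gather in hypoxia and glycolysis (9) and in immediate early genes (7), and rises in the cleavage-stage and epithelial junction lists (4 each). The 4 cleavage-stage rises are all Zscan4 copies that share sequence, so they are not independent counts.

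A set of transcripts was low in Ovol2a/2b-Tg and in Cdh1-Tg, but in none of the other 7 ESC lines. It was noticed after the values were seen. In 31 of the 162 falls, all 4 libraries of these 2 lines lay below all 14 libraries of the other 7, and in 1 of the 121 rises they lay above them. This was not counted over all tested genes, and the falls had been picked for low values in Ovol2a/2b-Tg. Acta1, the skeletal muscle actin gene and the largest fall among genes with a mean of at least 5 TPM in the higher group, was at 64.0 and 46.9 TPM in TKO, 3.46 and 2.44 TPM in Ovol2a/2b-Tg (-3.83 ± 0.182, adjusted p = 1.48e-08), and 7.11 and 5.60 TPM in Cdh1-Tg, with 36.2 to 73.6 TPM in the other 14 libraries. Acta2, for smooth muscle actin, was at 5.64 and 4.99 TPM in TKO and at 0 and 0.0992 TPM in Ovol2a/2b-Tg, and its highest value in Cdh1-Tg was 0.158 TPM. Cyr61, for a matricellular protein, was at 55.2 and 42.7 TPM, 3.96 and 4.40 TPM, and 5.29 and 6.14 TPM in the same 3 lines.

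The group also held Acot10, Cks1brt, Rasl2-9, Hist2h2ac and Hist2h2ab, which fell by between 2.98 and 3.13. Of these, Hist2h2ac shares 45.3%, Acot10 31.1% and Hist2h2ab 30.9% of their 50-base stretches with other genes, so their values are uncertain. These shares count exact matches only, so a nearly identical gene can be missed, also for members with a low share. Whether reads from genes of similar sequence affect other members of the group, the actin genes included, was not tested. The Hist2h2ac call was lost without Ovol2a/2b-Tg replicate 1 (-2.81) or TKO replicate 1 (-2.32). Of 16 tested genes for immediate early and heat shock responses, 7 fell in Ovol2a/2b-Tg relative to TKO and none rose (median -0.73). Among all tested genes 1.12% fell. Fos was at 56.6 and 58.8 TPM in TKO and at 6.99 and 12.6 TPM in Ovol2a/2b-Tg (-2.50), with a Cdh1-Tg mean of 2.48 TPM. Egr1 was at 276 and 185 TPM, against 37.0 and 40.3 TPM (-2.52), with a Cdh1-Tg mean of 10.8 TPM. Egr2, Junb, Fosb and Jun, like Fos and Egr1, were below the other 14 libraries in both lines. The remaining fall was Myc, at 7.86 and 8.29 TPM in Cdh1-Tg, within the range of the other 14. Jun was named after its values were seen, and the Egr2 call was lost without Ovol2a/2b-Tg replicate 1 (-2.10).

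**Figure D4:**
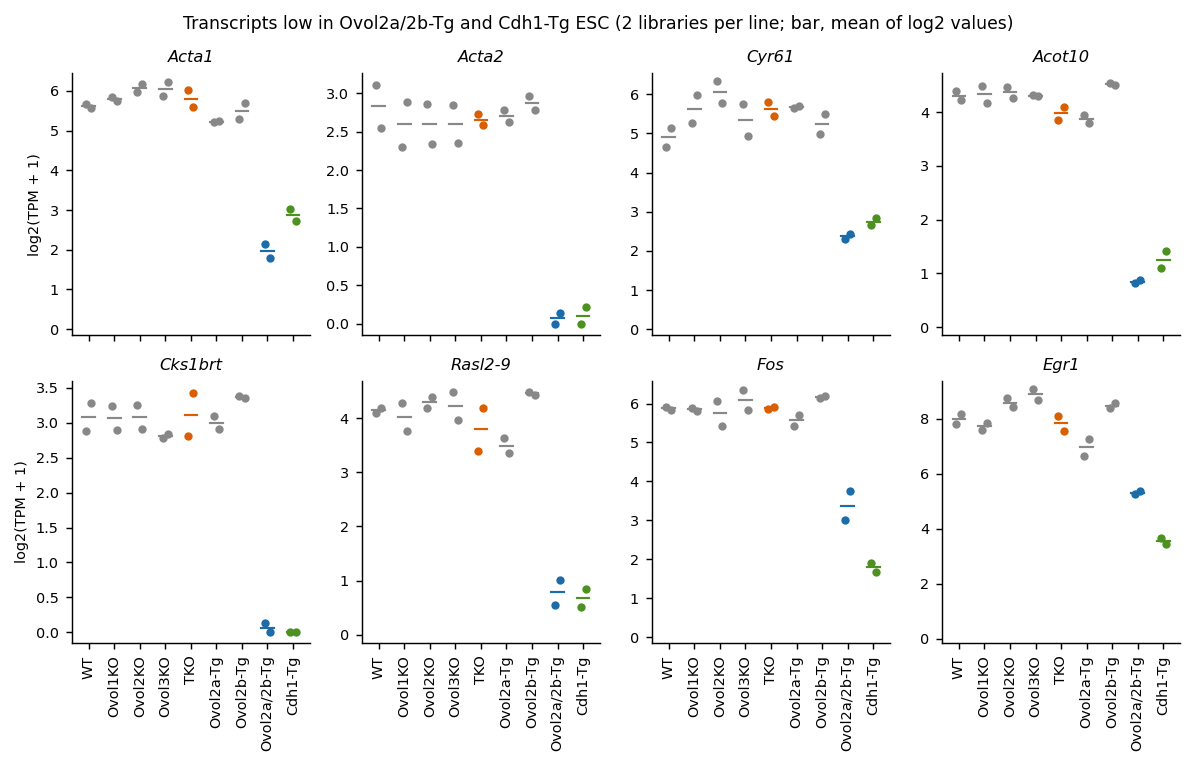
Level of 8 genes as log2(TPM + 1) in the 18 ESC libraries, 2 points and their mean for each of 9 lines, chosen after the values were seen. In each panel the Ovol2a/2b-Tg (blue) and Cdh1-Tg (green) libraries lie below all 14 others, and for Fos and Egr1 Cdh1-Tg lies below Ovol2a/2b-Tg.

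The transgenic line was therefore also set against Cdh1-Tg, an alternative chosen after the data were seen, which gave 216 rises (1.50% of tested genes) and 164 falls (1.14%), 2.64% in all. Cdh1-Tg against TKO gave 28 rises (0.194%) and 67 falls (0.465%), 0.659% in all. All 3 comparisons share libraries. Past both thresholds in the same direction against TKO and against Cdh1-Tg were 144 genes, 75 rises (0.520% of tested genes) and 69 falls (0.479%), 0.999% in all, while 3 of the falls against TKO were rises against Cdh1-Tg. They included Krt7, Krt8, Cldn7, Ap1m2, Eppk1, Dsp, Gipc2, Atf5, Sycp1, Sox7, Bmp7 and the 4 Zscan4 genes among the rises. Among the falls they included Igfbp4, Dnmt3l, Lef1, Pim2, Myc, Grb10, Bmp4, Slc16a3, Ldha, Ndrg1, Bnip3, Pfkl and P4ha1. For the immediate early list the direction turned: against Cdh1-Tg 4 genes were higher, among them Fos, Egr1 and Jun, and 1, Myc, was lower. A batch as the source of the shared low levels was not tested.

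Erdr1 and Mid1, genes at the boundary of the X and Y pairing region, were among the largest falls. Erdr1 was at 2659 and 2087 TPM in TKO and at 194 and 187 TPM in Ovol2a/2b-Tg (-3.62 ± 0.380, adjusted p = 4.57e-05). Mid1, an E3 ubiquitin ligase gene, was at 610 and 446 TPM in TKO and at 47.4 and 46.0 TPM in Ovol2a/2b-Tg (-3.45 ± 0.182, adjusted p = 3.69e-08). Line means of Mid1 were 2.74 TPM in Ovol2KO and 2.99 in Ovol2b-Tg, and 332 to 830 TPM in WT, Ovol1KO, Ovol3KO, Ovol2a-Tg and Cdh1-Tg. The Y-linked gene Ddx3y was at 2.46 and 1.97 TPM in TKO, 0 and 0.0550 TPM in Ovol2a/2b-Tg and 22.5 TPM on average in WT (-1.64 against TKO, adjusted p = 4.05e-05). Of 6 tested genes of the Y chromosome and X dosage list, 3 fell, where 1.12% of all tested genes fell. Whether a difference in sex chromosome content between lines adds to other changes was not tested. Median log2 fold changes of the 19 autosomes lay between -0.02 and 0.08.

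The same 2 lines were compared at the EpiLC and d2PGCLC stages. Transgene effect is used here for the difference between the 2 lines, whatever its source. Its change between stages was tested as an interaction in a fit of all 54 libraries. The effect in ESC differed from that in EpiLC for 627 genes (4.35% of tested genes), 457 more positive in ESC (3.17%) and 170 more negative (1.18%). That split was 359 and 261 with quantile scaling. It differed from that in d2PGCLC for 1210 genes (8.39%), 619 more positive (4.29%) and 591 more negative (4.10%). Within their own stages the effect called 651 genes in EpiLC (4.52%, with 1.59% higher and 2.93% lower) and 1220 in d2PGCLC (8.46%, with 4.36% higher and 4.11% lower).

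Ovol2 was high in Ovol2a/2b-Tg at every stage, at 4108 and 4161 TPM in EpiLC and 3403 and 3190 TPM in d2PGCLC. In TKO it was at 9.21 and 11.2 TPM in EpiLC and at 1.52 and 0.835 TPM in d2PGCLC. The difference between the 2 lines in Cdh1 was 2.42 ± 0.131 log2 units smaller in ESC than in d2PGCLC (adjusted p = 1.14e-15). There Cdh1 stood at 24.0 and 17.2 TPM in TKO and at 174 TPM in both transgenic libraries. Against EpiLC the Cdh1 effect did not pass the test (0.32, adjusted p = 0.0946). Over the 30 epithelial junction genes the median effect was 0.28 in ESC, 0.24 in EpiLC and 0.92 in d2PGCLC, with 4, 4 and 12 rises, and 9 genes had a more negative and 1 a more positive effect in ESC than in d2PGCLC.

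Atf5, which rose in ESC, passed both thresholds at neither other stage. Its EpiLC values were 48.5 and 49.6 TPM in TKO and 38.5 and 41.4 TPM in Ovol2a/2b-Tg, and the effects differed by 2.15 ± 0.169 from EpiLC (adjusted p = 3.30e-11) and by 1.94 ± 0.169 from d2PGCLC (adjusted p = 9.14e-11). Dnmt3l, which fell in ESC, was at 65.3 and 53.9 TPM in TKO and at 120 and 107 TPM in Ovol2a/2b-Tg EpiLC, a difference of -3.29 ± 0.272 between the effects (adjusted p = 9.34e-11). Slc16a3 was at 202 and 223 TPM in TKO and 209 TPM in both Ovol2a/2b-Tg EpiLC libraries, so that its effects differed by -2.30 ± 0.231 (adjusted p = 8.45e-09).

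The Zscan4 rise was larger in EpiLC, where Zscan4f went from 1.83 and 2.29 TPM to 44.0 and 45.3 TPM. The difference of ESC from EpiLC was -1.60 ± 0.552 for Zscan4f (adjusted p = 0.044) and -1.79 ± 0.441 for Zscan4c (adjusted p = 0.00493). Grb10 showed one of the largest differences from d2PGCLC, where it stood at 452 and 465 TPM in TKO and at 4.54 and 3.80 TPM in Ovol2a/2b-Tg, against a fall of 1.04 in ESC (difference 5.43 ± 0.142, adjusted p = 6.30e-26). Rhox6, a reproductive homeobox gene on the X chromosome, was at 66.3 and 85.8 TPM in TKO and 70.9 and 72.3 TPM in Ovol2a/2b-Tg ESC. In d2PGCLC it was at 0.895 and 0.423 TPM in TKO and at 25.9 and 47.2 TPM in Ovol2a/2b-Tg, so the effects differed by -4.53 ± 0.404 (adjusted p = 1.98e-10).

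**Figure D5:**
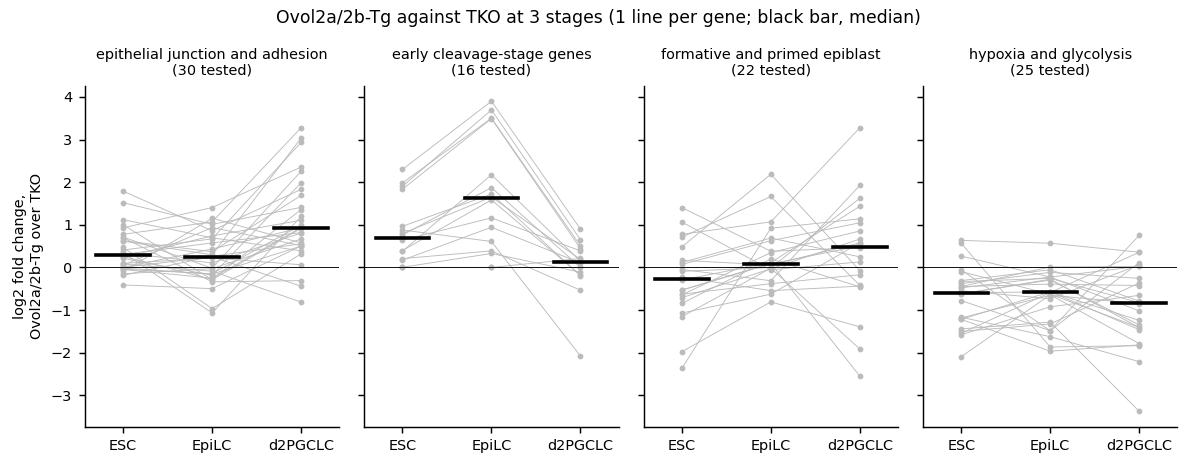
Log2 fold change of Ovol2a/2b-Tg over TKO in ESC, EpiLC and d2PGCLC for each tested gene of 4 lists, joined by a grey line, with the list median as a black bar. The epithelial junction median is 0.28 in ESC and 0.92 in d2PGCLC, the cleavage-stage median is 0.70 in ESC and 1.62 in EpiLC, and the hypoxia and glycolysis median is below 0 at each stage.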

How the data were processed

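Poly(A) RNA of 54 libraries (27 groups of 2) was sequenced with NEBNext Ultra Directional libraries, per the labels' protocols. The submitters' processing notes list HISAT2, featureCounts, edgeR and mm10. Versions, annotation and strandedness of counting were not given in the sources used here. Deposited by the authors were TPM values for 20036 genes, and each library sums to 1000000. Groups come from the sample titles. The TPM steps gave back whole reads (tolerance 0.001 read) in 17973 of 17973 genes above 0; these served for depth and 1 alternative.

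The deposited values were taken to log2(TPM + 1) and tested with limma 3.58.1 (R 4.3.3), whose shrinkage was robust and followed the mean-variance trend. The log2 scale with a pseudocount of 1 understates changes of scarce genes. A gene was tested if 2 or more of the 54 libraries had 1 TPM or more, which left 14416. ESC lines were compared in a fit of 18 ESC libraries (9 residual degrees of freedom), and stages in a fit of 54 (27). Calls needed a Benjamini-Hochberg adjusted p under 0.05 and a log2 fold change of 1 or more in size. For a single gene, 2 against 2 libraries allow no two-sided permutation p below 0.33.

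The comparison, the lists and the tests were chosen with earlier results of these data known. Lists are described by counts and medians, without a set test. Named genes were the OVOL genes and Cdh1, the 10 largest non-overlapping rises and falls with a mean of at least 5 TPM in the higher group, up to 4 changed genes per list, the 2 highest unchanged ones, and the 5 largest stage differences each way. All other genes named were chosen after their values were seen, and a few genes under the rule are not reported here. Shares of 50-base stretches held in common with other genes came from GENCODE M21 transcripts. The 2 ESC libraries of Ovol2a/2b-Tg differed by 1.37 in chi-square per degree of freedom, close to sampling noise, and the TKO pair by 6.37. The test was checked on simulated data. Alternatives varied the pseudocount, filter, scaling, block, model, libraries, line compared and unit.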

Additional observations from a re-analysis of the deposited data

Results flagged for a closer look

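For the genes below the transgene effect in ESC differed from the effect at another stage by the interaction test in limma; values are differences of log2 fold changes, ESC minus the other stage. Against EpiLC, the difference was 3.31 for Mef2b and 3.24 for 2310045n01rik-mef2b, a readthrough transcript that shares its reads. It was 2.82 for the gap junction gene Gjb2, 2.79 for Atf3, 2.78 for Ubap1l, 2.15 for Atf5, 1.47 for Hist1h2ah and 1.40 for Eppk1. On the negative side it was -3.29 for Dnmt3l, -2.90 for Anxa2, -2.61 for Aire, -2.53 for Ripply1, -2.52 for Igfbp4, -1.86 for Cyr61, -1.79 for Zscan4c, -1.60 for Zscan4f and -1.52 for Zscan4b.

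Against d2PGCLC, the difference was 6.25 for Sprr2b, which was at 0 in all 4 ESC libraries, 5.43 for Grb10, 4.01 for Cdx4, 3.58 for Fosb and 3.42 for Egr4. It was 2.45 for Hist2h2ab, 1.94 for Atf5, 1.48 for Zscan4b and 1.25 for Zscan4c. On the negative side it was -4.53 for Rhox6, -4.03 for Rhox9, -3.65 for Ldoc1, -3.58 for Acta2, -3.51 for Dnmt3l, -3.23 for Acta1, -2.42 for Cdh1, -2.06 for Ovol2 and -1.08 for Igfbp4.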

How the results depend on the processing

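The 283 changed genes became 98 with log2(TPM + 5), 647 with limma-voom on recovered reads and 144 past the thresholds against both TKO and Cdh1-Tg. Leaving out 1 library gave 193 to 462 genes, the latter without TKO replicate 1. For TKO against WT the 588 became 197 with log2(TPM + 5), 336 with only the 4 libraries, 925 with limma-voom, and 473 to 750 with 1 library left out; quantile scaling split them 299 higher to 296 lower instead of 231 to 357. For Ovol2a/2b-Tg against WT the 622 became 208 with log2(TPM + 5), 999 with limma-voom, and 538 to 710 with 1 library left out. The stage differences became 193 (ESC minus EpiLC, of 627) and 509 (ESC minus d2PGCLC, of 1210) with log2(TPM + 5), and lay at 488 to 720 and 1109 to 1275 with 1 library left out. The replicate number does not pair the samples: deviations of Ovol2a/2b-Tg and TKO correlated at 0.01, and 3 of 36 pairs of ESC lines exceeded 0.1. With the replicate number as a block, counts were 287, 594, 624, 614 and 1199, each within 1.5 times the value without it. With Cdh1-Tg in place of TKO, 30 of 57 named genes kept their direction and their side of the thresholds, 18 lost their call and 9 changed sign: Egr1 1.76, Fos 1.58, Hist2h2ab 0.54, Egr2 0.33, Hist2h2ac 0.18, Adm 0.16, Rasl2-9 0.10, Cks1brt 0.068 and Wnt8a -0.26. The lower counts with a larger pseudocount follow from smaller fold changes of scarce genes; the cause of the other shifts was not tested. Of the 57 named genes, 22 lost their call with log2(TPM + 5), and 12, 13, 5 and 12 without Ovol2a/2b-Tg replicate 1, Ovol2a/2b-Tg replicate 2, TKO replicate 1 and TKO replicate 2. With 1 of 2 libraries left out, the lone library was assumed to vary like the other lines. Levels under about 1 TPM rest on few reads in TKO replicate 2, the shallowest of the 4 libraries.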
